A study of Mus musculus with 8 samples.

Results

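Hepatocytes take up bile acids, steroid sulfates, carnitine and many drugs from the blood through transporters of the Slco (organic anion transporting polypeptide), Slc10 (sodium bile acid cotransporter) and Slc22 (organic anion and cation transporter) families. The sinusoidal carriers remove bile acids and hormone conjugates from portal blood, and a separate set of ABC transporters exports them into bile or back into blood. Levels of several of these carriers in rodent liver are known to depend on growth hormone, sex and nuclear receptors such as the farnesoid X receptor. The 8 genes described here are Slco1a1, Slco1a4, Slco1b2, Slco2b1, Slco2a1, Slc10a1, Slc22a5 and Slc22a7. They were chosen by gene symbol with their differences between the groups already known, so their values are given as a description. All 8 had a probe on the array, 11 of its 41174 probes in all, and 7 of the 8 had a probe named for them in the authors' table. Slco1b2 was found only through its RefSeq accession in the scanner files.

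RNA of whole liver was measured in 4 samples of wild type (WT) and 4 that lack miR-223 (miR-223KO), all from male mice of C57BL/6J background fed a high-fat diet for 3 months. The labels give the genotype by name only, so how the allele was made and the age of the mice are not given in the sources used here, nor do the labels state whether the samples were separate mice. Each sample was labelled with Cy5 and hybridised to its own Agilent 2-colour array against Cy3-labelled Ambion Mouse Assorted Total RNA, a mixed-tissue reference. The 8 arrays lay on 2 slides, each with 2 WT and 2 miR-223KO samples. No probe was found under the name of the deleted microRNA, so these arrays give no check of the genotype.

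The mature strand of the deleted microRNA, from RefSeq, is printed with its seed (bases 2 to 8) in capitals. Below it stand the first 30 bases of the deposited probes for the 2 transporters with the lowest miR-223KO values, with no capitals, since they show what the array read.
mmu-miR-223-3p: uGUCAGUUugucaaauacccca
Slco1a1 probe A_51_P165111: ctgaatttatccttcaatgttggaggtatt
Slco1a1 probe A_51_P103144: ccaagttcgagaacgatggagaactgaaaa
Slc22a7 probe A_51_P395856: cctgtgtttatccagtctccaaaaacagga
The DNA letters complementary to the seed, AACTGAC, were searched on both strands and stood in 0 of the 10 transporter probes with a deposited sequence and in 0.735% of 40554 such probes on the array. A probe covers 60 bases, so the search says nothing of the rest of a transcript. The transporter probes were distinct from one another. The longest run shared by any of their 45 pairs was 11 bases, between both Slco1a1 probes.

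Values are log2 ratios of liver Cy5 over reference Cy3 after normalisation, and differences are miR-223KO minus WT on that scale. A spot that the scanner software flagged as an outlier was left out of means and tests, and its value is given and named as such. All 11 transporter probes were well above background in Cy5 on all 8 arrays. Over the whole array 49.5% to 69.8% of spots were well above background in Cy5, 2.00% to 5.67% carried an outlier flag, none was saturated, and the median Cy5 intensity was 79.5 to 187. The Slco1a1 Cy5 intensity ran from 148.5 to 1739.5 with A_51_P165111 and from 113 to 1551 with A_51_P103144. The 113, in miR-223KO replicate 3, lay below that array's median of 118. The median standard error (SE) of a difference was 0.21, and the number of arrays limits this precision.

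A test needed at least 3 unflagged values in each group, which 6 of the 8 genes had. Slc10a1 and Slco1b2 were not tested because outlier flags left too few values. In limma, with p-values adjusted by Benjamini-Hochberg over all 16755 features (named genes and probes without a name), 2 passed an adjusted p of 0.05 in either direction (0.0119%) and 1 was lower in miR-223KO (0.00597%). That feature was Slco1a1. Of the 6 transporters tested, 4 had an unadjusted p under 0.05, against 784 of all features (4.68%). The 6 genes split into 3 lower and 3 higher in miR-223KO, with a median difference of -0.14, or 0.08 when arrays were centred on their median instead of by loess. Over all features the median was -0.0095 and 51.7% were lower. Since the genes were selected on this same comparison, nothing is read from their counts against the background.

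Slco1a1 encodes a sinusoidal carrier of bile acids, sulfated steroids and other organic anions, and is known for higher levels in male than in female mouse liver. With its brighter probe, A_51_P165111, the log2 ratio was 0.57, 0.26 and 0.01 in WT replicates 1, 2 and 4, and -0.98 in WT replicate 3, whose spot was flagged as non-uniform in Cy3 and left out. In miR-223KO replicates 1 to 4 it was -1.28, -1.84, -1.62 and -1.66. All 4 miR-223KO values lay below all 4 WT values, the flagged one included. The mean was 0.28 ± 0.28 (SD, n = 3) in WT and -1.60 ± 0.23 (SD, n = 4) in miR-223KO. The difference was -1.88 (SE 0.21, 95% interval -2.34 to -1.43), a 3.69-fold lower ratio, with limma's adjusted p at 0.00218.

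With the flagged spots of all arrays and genes kept together, that of WT replicate 3 among them, the Slco1a1 difference was -1.57 and limma's adjusted p was 0.182. The Slco1a1 groups still did not overlap. Keeping this spot alone was not tried.

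The other probe of Slco1a1, A_51_P103144, carried no outlier flag on any array. Its log2 ratios were 0.59, 0.94, -0.46 and 0.37 in WT replicates 1 to 4, and -0.77, -1.46, -1.70 and -1.69 in miR-223KO replicates 1 to 4. WT replicate 3 was again the lowest WT value, and the groups did not overlap. The difference was -1.77 (SE 0.28, 95% interval -2.35 to -1.18), a 3.40-fold lower ratio, with an adjusted p of 0.0712 in limma when every probe was tested on its own. Over the 8 arrays both probes of Slco1a1 had a Pearson correlation of 0.96, which holds the difference between the groups as well as the spread within them.

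Most of the Slco1a1 difference lay in the liver channel. For A_51_P165111 without the flagged spot the rebuilt Cy5 difference was -1.64 and the Cy3 difference 0.25, and for A_51_P103144 they were -1.71 and 0.06. On slide 1 the difference with A_51_P165111 was -1.98 and on slide 2 it was -1.65, or -1.16 on slide 2 with the flagged spot kept. With A_51_P103144 the slide values were -1.88 and -1.65. The difference was below 0 within each slide with both probes. In the authors' deposited table the log2 fold change was -1.90 for A_51_P165111 and -2.26 for A_51_P103144. With A_51_P165111 the groups overlapped in that table, where WT replicate 3 stood at -1.39, below miR-223KO replicate 1 at -1.24. With A_51_P103144 they did not overlap there. That table keeps flagged spots, as does the -1.57, while the -1.88 leaves them out. Its -1.90 differs from both in background and normalisation too. With processed signals the difference was -1.90 with flagged spots kept and -2.45 with them left out.

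**Figure D1:**
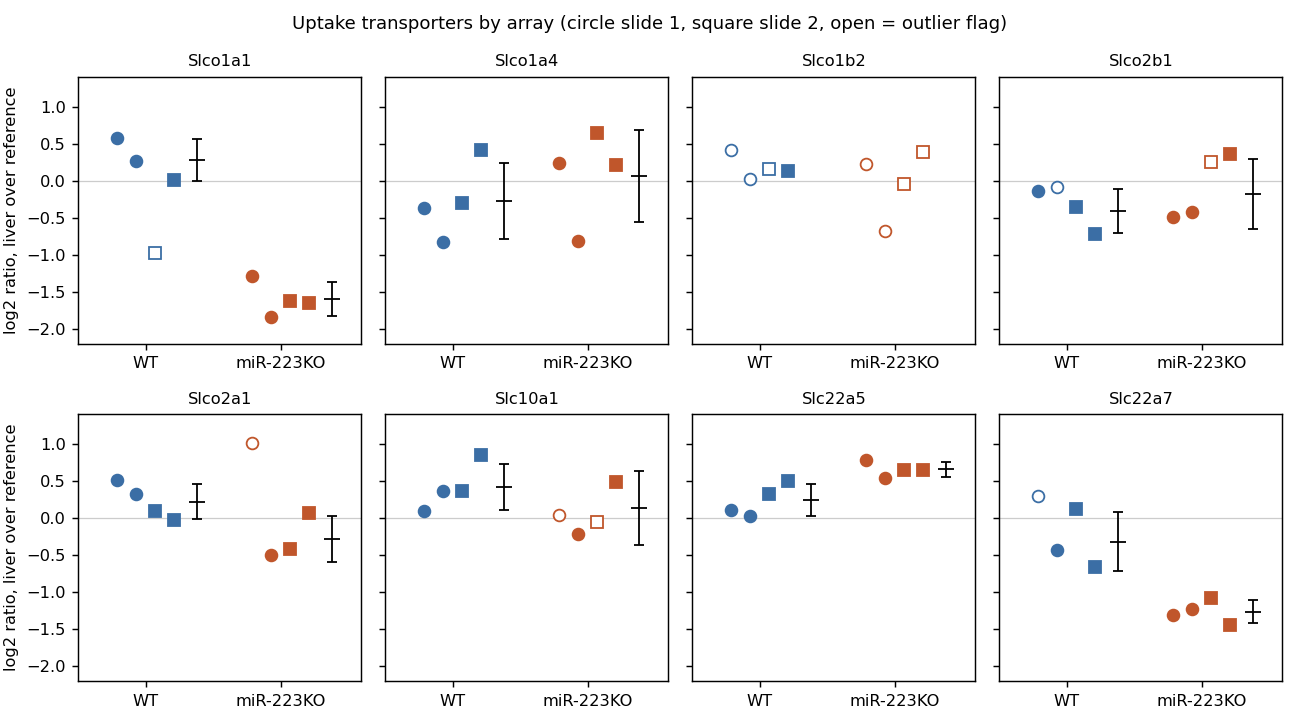
Log2 ratio of liver Cy5 over reference Cy3 (vertical axis) for 1 probe of each of the 8 transporters in WT and miR-223KO, with circles for slide 1, squares for slide 2, open symbols for outlier-flagged values, and a cross with bars for the mean ± SD of the unflagged values where there are at least 2. Slco1a1 and Slc22a7 lie lower in all 4 miR-223KO samples than in any WT sample, and Slc22a5 lies higher.

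Slc22a7, which encodes an organic anion transporter of the basolateral hepatocyte membrane, had the next lowest values. The log2 ratio was -0.43, 0.13 and -0.65 in WT replicates 2, 3 and 4, and 0.30 in the flagged WT replicate 1. In miR-223KO replicates 1 to 4 it was -1.31, -1.23, -1.07 and -1.44. The groups did not overlap, with or without the flagged value. The mean was -0.32 ± 0.40 (SD, n = 3) in WT and -1.26 ± 0.15 (SD, n = 4) in miR-223KO.

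The Slc22a7 difference was -0.94 (SE 0.22, 95% interval -1.41 to -0.48), a 1.92-fold lower ratio that did not pass the test, with limma's adjusted p at 0.724. The difference was -0.84 on slide 1 and -0.99 on slide 2. It was shared between the dyes, with -0.48 in Cy5 and 0.46 in Cy3. The Cy3 channel holds the same reference RNA on every array, and how a difference parts between the dyes depends on the normalisation between arrays. With flagged spots kept the ratio differed by -1.10, Cy5 by -0.77 and Cy3 by 0.34. In the authors' deposited table, which keeps flagged spots, its log2 fold change was -1.24.

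**Figure D2:**
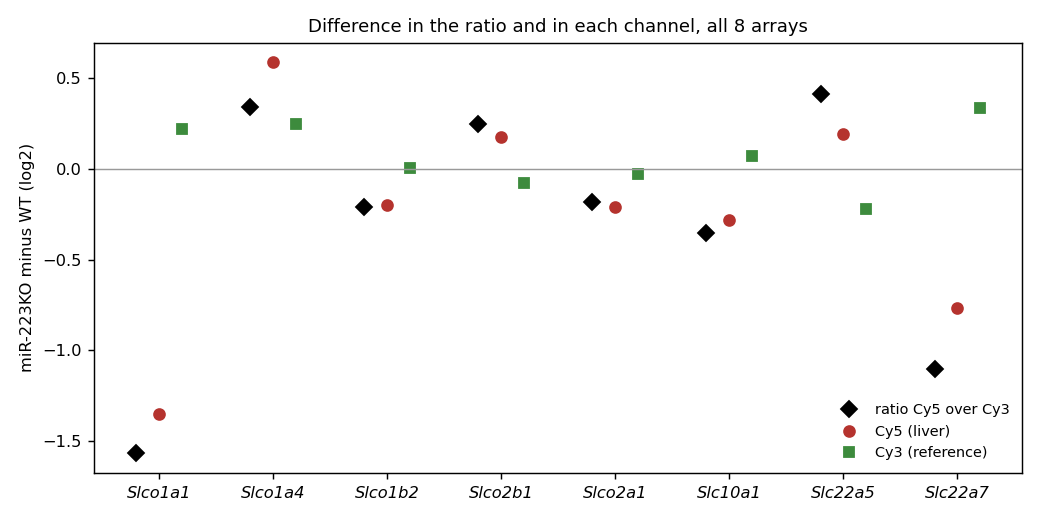
Difference between miR-223KO and WT (log2, vertical axis) in the ratio (diamonds), in Cy5 (circles, liver) and in Cy3 (squares, reference) for 1 probe of each transporter over all 8 arrays with outlier-flagged spots kept. For Slco1a1 the ratio differed by -1.57, Cy5 by -1.35 and Cy3 by 0.22, and for Slc22a7 by -1.10, -0.77 and 0.34.

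Slc22a5 encodes the sodium-dependent carnitine transporter, which supplies carnitine for the entry of long-chain fatty acids into mitochondria. With probe A_52_P656659 the log2 ratio was 0.11, 0.03, 0.33 and 0.51 in WT replicates 1 to 4, and 0.79, 0.54, 0.65 and 0.65 in miR-223KO replicates 1 to 4. The miR-223KO values were all higher, by a gap that was narrow between WT replicate 4 and miR-223KO replicate 2. The difference was 0.41 (SE 0.18, 95% interval 0.04 to 0.79) and did not pass the test, with limma's adjusted p at 0.98.

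With the other probe of Slc22a5, A_51_P165060, the log2 ratio ran from -0.84 to -0.02 in WT and from -0.24 to 0.07 in miR-223KO, so the groups overlapped, and the difference was 0.33 (SE 0.20). The slides ranked the probes in opposite ways. With A_52_P656659 the difference was 0.60 on slide 1 and 0.23 on slide 2, and with A_51_P165060 it was 0.05 and 0.60. For A_52_P656659 the dyes shared the difference, with 0.19 in Cy5 and -0.22 in Cy3.

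Groups that do not overlap thus occurred for 2 transporters in the lower direction (Slco1a1 and Slc22a7) and for 1 in the higher (Slc22a5). In the authors' table the groups of Slc22a7 stayed apart, as did those of Slco1a1 with A_51_P103144. With A_51_P165111 for Slco1a1 and A_52_P656659 for Slc22a5 the groups overlapped in that table. Over all features tested, 1.44% were lower without overlap and 1.65% were higher without overlap.

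Slco2a1 encodes the prostaglandin transporter. With probe A_51_P315931 the log2 ratio was 0.51, 0.32, 0.09 and -0.02 in WT replicates 1 to 4, and -0.50, -0.42 and 0.07 in miR-223KO replicates 2, 3 and 4. The flagged miR-223KO replicate 1 stood at 1.01, above every other sample. The difference was -0.51 (SE 0.22, 95% interval -0.97 to -0.04), and -0.18 with flagged spots kept. Probe A_52_P333529, with no such flag, gave -0.14 (SE 0.17). The groups overlapped with both probes, and the difference with A_51_P315931 was smaller with the flagged spots kept.

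**Figure D3:**
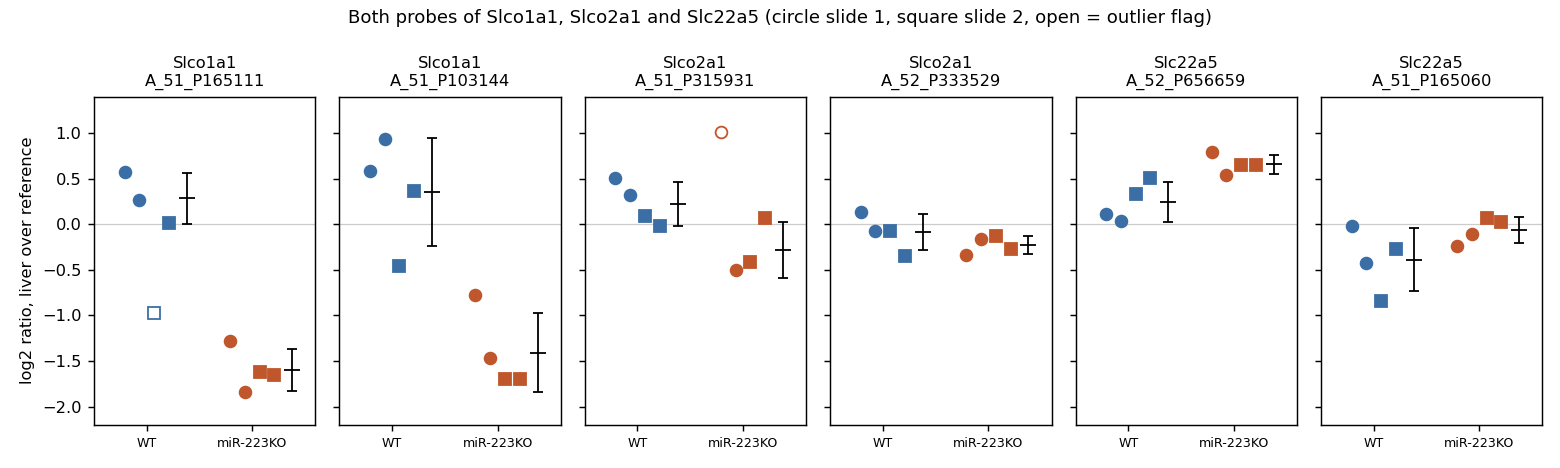
Log2 ratio (vertical axis) in each WT and miR-223KO sample for both probes of Slco1a1, Slco2a1 and Slc22a5, with circles for slide 1, squares for slide 2, open symbols for outlier-flagged values and a cross with bars for the mean ± SD of unflagged values. The groups lie apart with both Slco1a1 probes, with 1 probe of Slc22a5 and with neither probe of Slco2a1.

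Slco1a4 encodes a carrier close to that of Slco1a1, known to move bile acids and digoxin. Its log2 ratio was -0.37, -0.82, -0.30 and 0.42 in WT replicates 1 to 4, and 0.23, -0.81, 0.64 and 0.22 in miR-223KO replicates 1 to 4. The groups overlapped over most of their range. The difference was 0.34 (SE 0.30, 95% interval -0.29 to 0.97), and the interval holds both no difference and a ratio higher by 0.97. The value moved with single samples. It was 0.15 without miR-223KO replicate 3, 0.16 without WT replicate 2, 0.57 without WT replicate 4 and 0.63 without miR-223KO replicate 2.

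Slco1b2 encodes the mouse liver carrier of unconjugated bile acids and many drugs. Its spot was flagged on 7 of the 8 arrays, all but WT replicate 4, and the gene was not tested. With the flagged values kept, its log2 ratio ran from 0.02 to 0.41 in WT and from -0.68 to 0.38 in miR-223KO, a difference of -0.21. miR-223KO replicates 2 and 3 lay below every WT value and the other two within the WT range.

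By gene order in the RefSeq table of the GRCm38.p6 assembly, Slco1a4 and Slco1a1 are next to each other on chromosome 6, and 1 gene, Gm5724, parts Slco1a4 from Slco1b2. With flagged spots kept, the differences of these neighbours were -1.57 for Slco1a1, 0.34 for Slco1a4 and -0.21 for Slco1b2. With flagged spots left out Slco1a1 stood at -1.88, and Slco1b2 had no difference to give. Their differences from each other were not tested.

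Slco2b1, a carrier of steroid sulfates and other anions, differed in direction between the slides. Its log2 ratio was -0.14, -0.36 and -0.72 in WT replicates 1, 3 and 4 and -0.08 in the flagged WT replicate 2. In miR-223KO it was -0.49, -0.43 and 0.36 in replicates 1, 2 and 4 and 0.25 in the flagged replicate 3. The difference was 0.22 (SE 0.27, 95% interval -0.35 to 0.79), made of -0.32 on slide 1 and 0.90 on slide 2. Without WT replicate 4 it was 0.07 and without miR-223KO replicate 4 it was -0.05, while leaving out replicate 1 of WT, or replicate 1 or 2 of miR-223KO, gave 0.34 to 0.38.

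Slc10a1 encodes the sodium-taurocholate cotransporting polypeptide, the main carrier of conjugated bile acids into hepatocytes. Its log2 ratio was 0.10, 0.37, 0.36 and 0.85 in WT replicates 1 to 4. In miR-223KO it was -0.22 and 0.49 in replicates 2 and 4, and 0.04 and -0.06 in the flagged replicates 1 and 3. In miR-223KO 3 values lay below every WT value and the other lay within the WT range. With all spots kept the difference was -0.36 (95% interval -0.80 to 0.09). In the authors' deposited table its log2 fold change was -0.30.

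The samples were checked for markers of the cells that carry these transporters and of their neighbours. In bulk tissue, fewer cells of a type and less RNA per cell cannot be told apart. All 12 hepatocyte markers were well above background on all 8 arrays, and the 6 that could be tested had a median difference of -0.38, with Serpina1c lowest at -0.68. All 6 differences were below 0 (5 of 6 with median centring, where the median was -0.10), 2 had an unadjusted p under 0.05 and 0 passed the test in limma. Their mean log2 ratio was 0.85 to 1.89 in WT and 0.37 to 0.84 in miR-223KO. Flagged values were left out of this mean, so it did not cover the same markers on every WT array. Serpina1c, Apob, Ttr and Hnf4a each had 3 WT values. With flagged spots kept, 10 of 12 had a lower mean in miR-223KO, and the marker mean ran from 0.50 to 1.03 in WT and from 0.32 to 0.75 in miR-223KO, a difference of -0.22.

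Each transporter was set against the mean of those 12 hepatocyte markers on the same array, with flagged spots of transporters and markers kept. This calculation was added after the values were seen. It gave -1.34 for Slco1a1 with A_51_P165111 and -1.54 with A_51_P103144. Before this step, also with flagged spots kept, the differences were -1.57 and -1.77, and -1.10 for Slc22a7. On the scale relative to the markers the Slco1a1 groups did not overlap with either probe. Slc22a7 gave -0.88, and its groups overlapped, since the lowest WT value was -1.68 and the highest miR-223KO value -1.48. Slc10a1 gave -0.13 and Slco1b2 0.02, while Slc22a5 with A_52_P656659 gave 0.64. The Slc22a5 groups overlapped on this scale too, with the highest WT value at -0.19 and the lowest miR-223KO value at -0.20.

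Markers of other liver cells were read in the same way, and their part in the transporter values was not tested. Of 10 markers of sinusoidal endothelium, 8 had a difference above 0, with a mean log2 ratio of -0.26 to 0.04 in WT and 0.01 to 0.17 in miR-223KO. Of 8 tested markers of Kupffer cells and macrophages, 7 had a difference above 0, with -0.32 to 0.53 in WT and -0.08 to 0.51 in miR-223KO. Of 6 cholangiocyte markers 5 had a difference below 0 (3 with median centring), with -0.22 to 0.21 in WT and -0.44 to -0.04 in miR-223KO. Of 6 stellate cell markers 4 had one below 0 (2 or 3 under the other scalings), with -0.39 to 0.03 and -0.18 to 0.01. None passed the test in limma, and 2 endothelial and 2 macrophage markers had an unadjusted p under 0.05. Of 5 kidney tubule markers, Slc34a1 and Aqp2 were well above background on 8 arrays, Lrp2 on 4, Slc5a2 on 1 and Umod on 0. The 3 that were tested had a mean log2 ratio of -0.29 to 0.20 in WT and -0.23 to 0.0016 in miR-223KO.

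The other genes of the 3 transporter families gave no gene past the test. Of 10 other Slco genes only Slco3a1, a carrier found in many tissues, was tested, with a difference of -0.36 (SE 0.20), and the other 9 were above background on at most 3 arrays. The Slco3a1 difference was -0.20 without WT replicate 2 and -0.61 with the processed signals or the authors' table. Of 29 other Slc10 and Slc22 genes 19 were tested. Of these, 14 had a difference below 0 and 5 above, with 0 at an unadjusted p under 0.05 and a median of -0.09, and median centring turned this to 5 below, 14 above and a median of 0.05. The median was -0.16 without WT replicate 1, -0.03 without WT replicate 4, and -0.05 without miR-223KO replicate 1 or replicate 2.

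Among those family members Slc10a2, the bile acid carrier of ileum and bile duct, differed by -0.48 (SE 0.30). Its other probes gave -0.25 (SE 0.19) and -0.18 (SE 0.22). Slc22a21, a carnitine transporter gene next to Slc22a5 on chromosome 11 in the RefSeq order, differed by -0.49 (SE 0.28), and its other probe by 0.21. Neither passed the test. The probes of Slc22a21 thus differed in sign.

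Of 15 hepatocyte export transporters 14 were tested, 7 below 0 and 7 above (3 and 11 in the authors' table), and 0 passed the test in limma. The median was 0.06 and ran from -0.03 to 0.27 over the other settings. Abcc6, an ABC transporter of the hepatocyte's blood side, was the 1 gene with an unadjusted p under 0.05, at -0.69 (SE 0.21, adjusted p 0.98). Abcc4, which exports bile acids and organic anions to blood, stood at 0.29 (SE 0.19).

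Of 20 regulators and partners of these transporters 16 were tested, 10 below 0 and 6 above, with 0 past the test and 1 at an unadjusted p under 0.05. Their median was -0.08, and median centring turned this to 6 below, 10 above and a median of 0.07. Nr0b2, the small heterodimer partner that the farnesoid X receptor induces, differed by -0.63 (SE 0.25). Bcl6, a repressor that is under growth hormone control in liver, differed by -0.58 (SE 0.30).

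**Figure D4:**
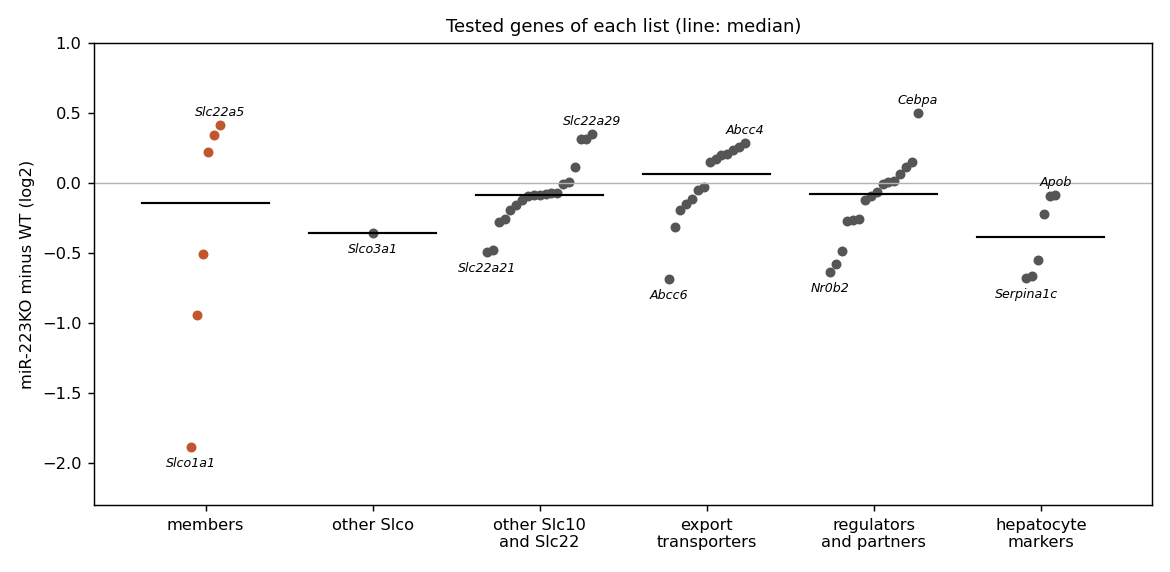
Difference between miR-223KO and WT (log2, vertical axis) for each tested gene of the transporter set and of 5 other lists, 1 point per gene, with a line at the list's median and the names of the lowest and highest genes. Slco1a1, at -1.88, lies below every gene of the other lists, of which Abcc6 is lowest at -0.69.

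The genes whose log2 ratios followed Slco1a1 (A_51_P165111) most closely over the 8 arrays, with flagged spots kept, were Best1 (Pearson correlation 0.96), Cutal (0.95), Igsf3 (0.95), 4933401B06Rik (0.94) and Gm13522 (0.94). Best1 encodes a bestrophin anion channel and Igsf3 a member of the immunoglobulin superfamily. The points share the group difference, and none of these 5 genes passed the test. Their own differences were smaller than that of Slco1a1, from -0.73 for 4933401B06Rik to -0.38 for Igsf3.

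Slco1a1 was lower in miR-223KO under every setting of the ratio that was tried, and it did not always pass the test. Among 27 other settings with a test, the adjusted p was under 0.05 in 19. The 19 are not separate checks, since they hold the runs without each sample in turn. Slide and scan as a block gave the same values, and Aquantile normalisation left the difference at -1.88. The 8 that lost the call were those that used the deposited local backgrounds, the processed signals, the authors' table, median centring, the mean of both probes or the flagged spots.

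**Figure D5:**
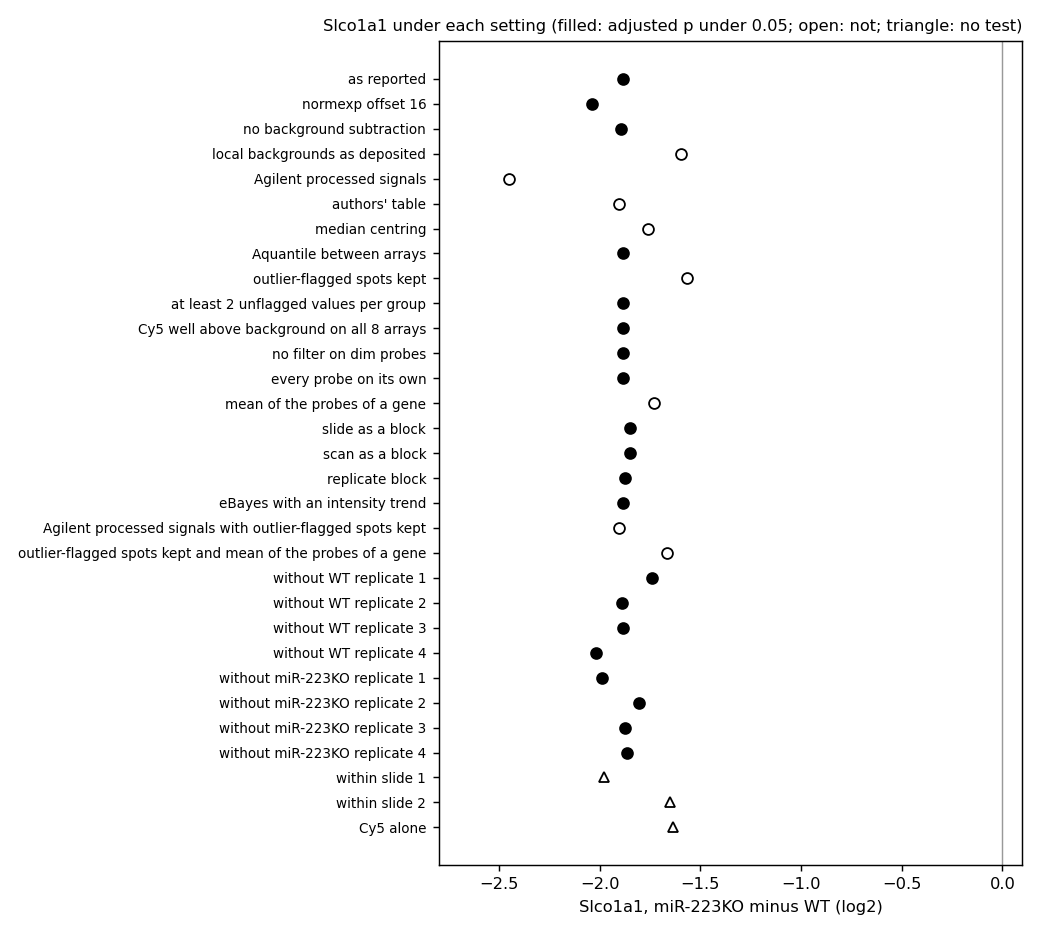
Difference of Slco1a1 between miR-223KO and WT (log2, horizontal axis) as reported and under each other setting of the ratio or of Cy5, with filled circles for an adjusted p under 0.05, open circles for a larger one and triangles where there is no test. All values lie below 0, from -2.45 with the processed signals to -1.57 with outlier-flagged spots kept.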

How the data were processed

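Median signals of spots and of their local background were read as intensity from the deposited output of Agilent Feature Extraction 12.0.3.1, per the file headers. Its LogRatio, per the file headers, is the authors' log10 ratio of the processed dyes, and it entered no result. The authors' table holds log2 ratios, of which 99.6% lay within 0.001 of the log2 ratio of the deposited processed signals. Local background was subtracted with normexp (offset 50) in limma 3.58.1 under R 4.3.3, with flagged backgrounds replaced by the array's median. Ratios were normalised within arrays by loess, giving no weight to controls or spots with an outlier flag. Flagged spots were left out, and spots of a probe were averaged. Differences in Cy5 or Cy3 alone were rebuilt after Aquantile normalisation between arrays.

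A test required Cy5 well above background on 4 or more of the 8 arrays and 3 unflagged values per group, and the brightest probe stood for a gene. In the runs without a sample, 2 unflagged values were enough in the group that lost it. Groups were compared with lmFit and eBayes (two-sided), adjusted over 14695 genes and 2060 unnamed probes. The fit was tested on simulated data. The transporters and all gene lists were chosen with earlier results of these data known. Named genes are all 8 transporters, of each other transporter or regulator list every gene that passed or, with none, the 2 of smallest unadjusted p, and the 5 genes most like Slco1a1. The marker gene Serpina1c was chosen after its value was seen. The spread that p-values measure is that between these samples, and it may be technical.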

Additional observations from a re-analysis of the deposited data

How the results depend on the processing

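Over 27 other settings with a test, 0 genes of the 4 other transporter and regulator lists passed it. Without each sample in turn, Slco1a1 differed by -2.02 to -1.74 and passed every time, with limma's adjusted p from 0.00176 to 0.0393. The features past the test numbered 2 to 4, with 4 without miR-223KO replicate 1. The group that lost a sample needed only 2 unflagged values in these runs. Without WT replicate 1, 2 or 4 the WT mean of Slco1a1 thus held 2 values. All these runs left out flagged spots, so the flagged Slco1a1 value of WT replicate 3 entered none of them. Leaving out WT replicate 3 thus repeated the Slco1a1 difference of -1.88. An offset of 16 also gave 4. Under each of the 8 settings that follow, 1 feature and 0 transporters passed, and Slco1a1 with its adjusted p stood at -1.60 (0.213) with local backgrounds as deposited, -2.45 (0.0617) with processed signals, -1.90 (0.713) with the authors' table, -1.76 (0.619) with median centring, -1.57 (0.182) with outlier-flagged spots kept and -1.73 (0.0575) with the mean of a gene's probes. Of these 8 settings 2 were added after seeing the data. They kept flagged spots with processed signals (-1.90, 0.718) and with the mean of probes (-1.67, 0.196). The 3 settings named as keeping flagged spots had 5 transporters lower rather than 3, since Slc10a1 and Slco1b2 then entered. The authors' table also holds the flagged spots, and it had 4 lower, with no probe named for Slco1b2. Its Slco1a1 difference equals that of processed signals with flagged spots kept, so these settings are not separate checks. The cause of the other changes was not tested. In Cy3 alone Slco1a1 differed by 0.25. Median centring gave -0.58 for Slc22a7. Slco1a1 was at -1.85 (adjusted p 0.00557) with slide as a block. Samples of the same replicate number did not deviate together (correlations -0.02 to 0.06), so the numbers were not taken as pairs. With a replicate block Slco1a1 was at -1.88 (adjusted p 0.0116) and 2 features passed. With 4 arrays a group and flags that kept 6 of 12 hepatocyte markers and 2 of 8 transporters from the test, small differences are not resolved here.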
